A study of Homo sapiens with 4 samples.

Results

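The p53 target genes were read as a set of 36 genes known to be switched on by the tumor suppressor p53, and all 36 were found among the 20243 genes tested on 4 arrays. The members were chosen by name and not by their values, 34 of them from the gene name that the array design gives a probe. TIGAR, listed as C12orf5, and AEN, listed as ISG20L1, were found through the accession of their probe in the NCBI RefSeq gene table. The members have 58 probes, and where a gene has several, the probe with the highest mean signal over the arrays stands for the gene. Single color Agilent arrays were hybridized with total RNA of HCT116 derived clones, 2 arrays for the vector control clone (vec) and 2 for shpkp3-2, a clone in which plakophilin3 (PKP3) was knocked down by a stably transfected shRNA plasmid. HCT116 is an established colorectal carcinoma line, and PKP3 is a protein of the desmosome, a junction between epithelial cells. The labels give 5 μg/ml of puromycin as selection for all arrays, while the study's methods name blasticidin for clones of this line. Each condition is 1 clone, so that the knockdown and any other difference between these clones cannot be told apart, and the p-values measure the spread between RNA collections of the same clone.

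p53 is a transcription factor that is held at a low level in unstressed cells by MDM2 and rises after DNA damage and other stress. It binds response elements near its target genes, and their products arrest the cell cycle, repair DNA, lower oxidative stress or start apoptosis. Some targets, MDM2 among them, act back on p53 and limit it. HCT116 cells are known to carry normal p53, so the levels of its targets can be read as a measure of p53 activity, and the question put to the data was whether the clones differ in it.

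The DNA that p53 reads is a pair of short palindromic decamers. The 250 bases before each annotated transcription start were searched for it in the RefSeq promoter table of GRCh38.p14, which gives windows for 30 of the members. Both strands were covered, with at most 2 mismatches over the pair, the central C and G of each decamer kept, and at most 13 bases between the decamers. A pair was found for 4 of the 30 members, or 13.3%, and for 3.07% of the 27305 genes in the table. These 4 elements are shown since they are the matches found before the start of members described below, and each departs from the p53 consensus at 2 positions. Each is a stretch of 30 bases with the decamers in capitals, read 5′ to 3′ on the strand of the gene, at chr12:68808918-68808947 for MDM2 (plus strand), chr10:88991304-88991333 for FAS (plus), chr15:88621301-88621330 for AEN (plus) and chr17:74872996-74873025 for FDXR (minus).
MDM2: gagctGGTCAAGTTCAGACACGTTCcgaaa
FAS: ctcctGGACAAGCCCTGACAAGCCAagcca
AEN: gagccGGGCTTGCCCGGGCATGTGGgagct
FDXR: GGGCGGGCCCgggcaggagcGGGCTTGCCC
The decamers of MDM2, FAS and AEN lie side by side, and those of FDXR are 10 bases apart. A match describes letters only, and p53 binding was not measured.

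The labels and the quality of the arrays were checked first. PKP3, measured by 1 probe, had normalized log2 signals of 5.39 and 5.90 in vec and of 3.17 and 3.04 in shpkp3-2, each relative to the 75th percentile of its array. It fell by 2.54 on the log2 scale (SE 0.23, limma adjusted p = 0.019). With other detection filters the change was the same. The call held when detection on all 4 arrays was required (adjusted p = 0.023), and it was lost with the 2 looser filters (adjusted p = 0.135 and 0.145). Between 60.5% and 63.5% of the 51538 spots that are not controls were well above background on an array, and 0 spots were saturated. Over probes the vec pair correlated at 0.989, the shpkp3-2 pair at 0.995, and arrays of different clones at 0.985 to 0.991. All arrays were on 1 slide, where each clone held neighbouring positions, so that position and clone cannot be told apart. The 6 epithelial markers, EPCAM and keratins among them, were detected on all arrays. Of the markers of other cell types, 1 of 5 for fibroblasts, 1 of 3 for endothelium and 3 of 5 for leukocytes were detected, while the leukocyte marker PTPRC was on none. The summed scaled signal of the leukocyte markers was 0.41 to 0.43 in vec and 0.92 to 0.93 in shpkp3-2, with CD68, a lysosomal protein also made by other cells, higher by 1.43 (adjusted p = 0.046). The part of this in the values below was not tested.

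No member of the p53 program passed the test in either direction. Of the 36 members, 0 were higher and 0 lower in shpkp3-2 at a limma adjusted p under 0.05, where the background over all genes was 0.277% higher and 0.158% lower. At an unadjusted p under 0.05, 3 members lay higher (FDXR, TNFRSF10C and SFN) and 0 lower, against 7.62% and 4.53% of all genes. Without the second vec array these counts were 4 and 3, and without either shpkp3-2 array they were 0 and 0. The counts of members higher and lower were 1 and 1 with quantile normalization and 0 and 1 with median centring. With the RNA collection as a replicate block they were 0 and 0. All 36 were well above background on all 4 arrays. The log2 fold changes, shpkp3-2 against vec, ran from -0.45 for SESN2 to 0.52 for FDXR. Their median was 0.03, beside 0.06 over all genes tested, and 21 lay above 0 and 15 below. These counts move with the scaling, which shifts all genes. With quantile normalization 14 members lay above 0 and the median was -0.04, beside 0.0073 over all genes, and with median centring 15 lay above 0 and the median was -0.05, beside -0.013 over all genes.

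The size of change that the arrays leave room for was read from the 95% confidence intervals. They were taken from the fit without pairing and from the probe that stands for the gene, its leading probe. For 35 of the 36 members this whole interval was within 2-fold either way, compared with 78.2% of all genes. The exception was BAX, with an interval from -1.13 to 0.84. Other probes left more room, among them 1 of MDM2 (-1.15 to 0.16) and 1 of BAX (-0.53 to 1.74), so that a 2-fold change is not excluded for every other member. At a 2-fold difference from the vec mean on each shpkp3-2 array, counted without a test, 0 members were higher and 0 lower, with a background of 1.23% and 0.642%. At 1.5-fold the counts were also 0, with a background of 4.28% and 2.41%. Both shpkp3-2 arrays lay above both vec arrays in 8 members, where the background over all genes was 28.4%, and below in 4 members, where the background was 17.2%. In the other 24 members the arrays of the clones overlapped. RNA was taken from whole cultures, in which fewer cells of a type and less RNA per cell cannot be told apart.

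**Figure D1:**
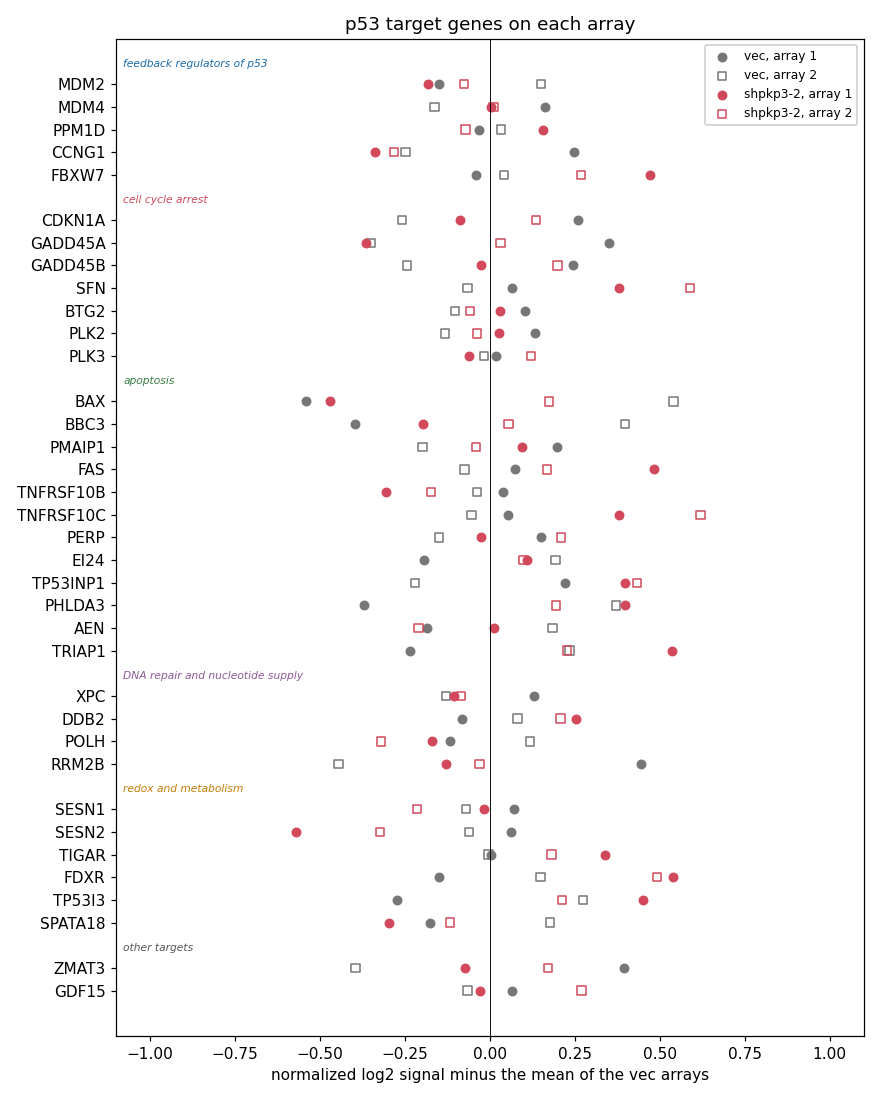
Normalized log2 signal of each of the 36 p53 target genes on the 4 arrays, with the mean of the vec arrays set to 0, in rows grouped by role. Filled symbols are the first and open symbols the second RNA collection. In 24 members the gray vec symbols and the red shpkp3-2 symbols overlap, and the vec arrays of BAX are the farthest apart.

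**Figure D2:**
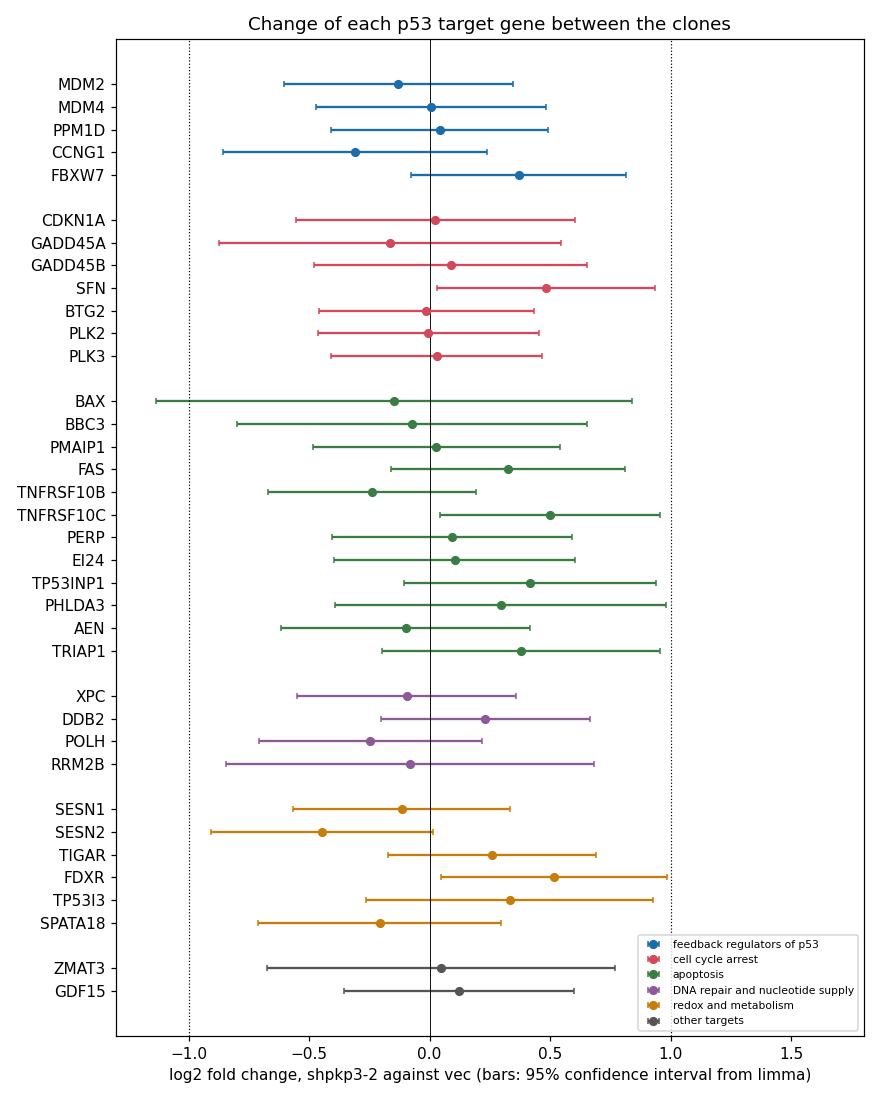
The log2 fold change of each member on its leading probe, shpkp3-2 against vec, with its 95% confidence interval from limma. Dotted lines mark 2-fold either way, and the interval of BAX alone crosses one of them.

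Among the genes that act back on p53, none passed the test and the median change was 0.01. MDM2 encodes the ubiquitin ligase that marks p53 for destruction. Its normalized log2 signals were -2.12 and -1.82 in vec against -2.15 and -2.05 in shpkp3-2. The clones overlapped, with a change of -0.13 (SE 0.19, adjusted p = 0.814), and without the second vec array it was 0.02. The other 4 genes of this group were MDM4, which also inhibits p53, the phosphatase PPM1D, cyclin G1 (CCNG1) and the ubiquitin ligase subunit FBXW7. Their changes ran from -0.31 for CCNG1 to 0.37 for FBXW7. All arrays of the knockdown clone lay below vec for CCNG1 and above vec for FBXW7, and the adjusted p was 0.606 and 0.480, respectively. Another FBXW7 probe gave -0.03 with overlap of the clones.

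The genes of cell cycle arrest were led by CDKN1A, which encodes p21, an inhibitor of cyclin dependent kinases and the most widely used readout of p53. CDKN1A had normalized log2 signals of 4.54 and 4.03 in vec and of 4.20 and 4.42 in shpkp3-2. Both shpkp3-2 arrays were between the vec arrays, so that the highest and the lowest value belonged to the same clone. The change was 0.02 (SE 0.24, 95% confidence interval -0.55 to 0.60, adjusted p = 0.978), and a further probe gave 0.04. Its sign depended on single arrays, as it was -0.23 without the second vec array and -0.09 without the second shpkp3-2 array. It was also below 0 with normexp background correction (-0.02), with quantile normalization (-0.07) and with median centring (-0.05), of which the last shifts every gene alike.

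SFN encodes 14-3-3 sigma, an epithelial protein that holds cells before mitosis. Its normalized log2 signals were 1.94 and 1.81 in vec against 2.25 and 2.46 in shpkp3-2. The clones did not overlap, and the change was 0.48 (SE 0.18, adjusted p = 0.383). The other 5 genes of this group were GADD45A and GADD45B, which respond to growth arrest and DNA damage, the antiproliferative BTG2 and the kinases PLK2 and PLK3. Their changes were between -0.17 for GADD45A and 0.09 for GADD45B, with overlap of the clones in each of them. BTG2 and PLK2 changed by -0.01 each, and PLK3 by 0.03 with 3 probes that gave 0.03 to 0.04.

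The apoptosis group was the largest, with 12 genes, of which 8 had a change above 0 and the median was 0.10. TNFRSF10C, a decoy receptor that binds the death ligand TRAIL without passing on its signal, had normalized log2 signals of -0.73 and -0.84 in vec and of -0.40 and -0.16 in shpkp3-2. The clones did not overlap, and the change was 0.50 (SE 0.19, adjusted p = 0.373). TNFRSF10B encodes a receptor of the same ligand that does signal death, and its probe with the highest signal gave -0.24 (adjusted p = 0.613), with both shpkp3-2 arrays below vec. Its other probe gave 0.12 (adjusted p = 0.809), with both shpkp3-2 arrays above vec, so that no direction was settled for it. The death receptor FAS had -0.26 and -0.41 in vec against 0.15 and -0.17 in shpkp3-2. Both shpkp3-2 values were above vec, with a change of 0.33 (SE 0.20, adjusted p = 0.556) that was 0.17 without the first shpkp3-2 array.

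BAX, which opens the outer membrane of mitochondria, had normalized log2 signals, on its leading probe, of 4.0 and 5.08 in vec and of 4.07 and 4.72 in shpkp3-2. On this probe the second RNA collection gave the higher value in both clones, while on the other BAX probes it did so in vec and not in shpkp3-2. The gap of 1.08 between the vec arrays was the widest among the leading probes of the members. The change was -0.15 (SE 0.40, adjusted p = 0.905), and it was 0.39 without the second vec array and 0.17 without the first shpkp3-2 array. BBC3 (PUMA) and PMAIP1 (NOXA), which set off BAX, changed by -0.07 and 0.03. The remaining 7 genes of the group, PERP, EI24, TP53INP1, PHLDA3, AEN, TRIAP1 and TNFRSF10B, ran from -0.24 to 0.42. TP53INP1, a stress protein that promotes cell death, stood at the upper end without overlap of the clones (adjusted p = 0.496).

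The 4 genes of DNA repair and nucleotide supply had a median change of -0.09. XPC and DDB2 recognize ultraviolet damage, POLH copies DNA past it, and RRM2B is a subunit of ribonucleotide reductase. Their changes ran from -0.25 for POLH to 0.23 for DDB2, and the adjusted p was at least 0.627. A further POLH probe had the smallest adjusted p of any member probe in the fit without pairing, 0.234. It was not well above background on the shpkp3-2 arrays and entered the test only through vec, so this value cannot support a difference. Its normalized log2 signals were -5.15 and -4.83 in vec and -5.99 and -5.68 in shpkp3-2.

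Of the 6 genes of redox control and metabolism, 3 had a change above 0. FDXR is the mitochondrial flavoprotein that passes electrons from NADPH to ferredoxin, and its decamers are shown above. Its normalized log2 signals were 5.94 and 6.23 in vec against 6.62 and 6.58 in shpkp3-2. Both shpkp3-2 arrays lay above vec, with a change of 0.52 (SE 0.19, 95% confidence interval 0.05 to 0.98, adjusted p = 0.372). It was the largest change among the leading probes of the members. TIGAR, which lowers the flow through glycolysis, had 0.26 and 0.54 from its probes, with no overlap of the clones in either.

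TP53I3, an enzyme of quinone metabolism, had normalized log2 signals of 0.87 and 1.42 in vec and of 1.59 and 1.35 in shpkp3-2. The clones overlapped, with a change of 0.33 (SE 0.24, adjusted p = 0.613). This value rested on single arrays, as it was 0.057 without the first vec array, 0.61 without the second and 0.21 without the first shpkp3-2 array. The sestrins SESN1 and SESN2 restrain the growth kinase mTORC1 and protect from oxidative stress. SESN1 had -0.66 and -0.80 in vec and -0.75 and -0.95 in shpkp3-2, which overlapped, with a change of -0.12 (SE 0.18, adjusted p = 0.824) and -0.22 to -0.018 when an array was left out. SESN2 had the lowest change among the leading probes of the members, -0.45 (SE 0.19, adjusted p = 0.418), with both shpkp3-2 arrays below vec. SPATA18, which acts in the quality control of mitochondria, gave -0.21 with overlap of the clones, while its other tested probe gave 0.30 with both shpkp3-2 arrays above vec. The directions within the group were mixed.

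GDF15, a secreted stress cytokine, had normalized log2 signals of 8.33 and 8.20 in vec and of 8.24 and 8.54 in shpkp3-2. The clones overlapped, and the change was 0.12 (SE 0.19, adjusted p = 0.829), with -0.07 under quantile normalization and -0.03 without the second shpkp3-2 array. ZMAT3, an RNA binding protein, gave 0.05 with overlap of the clones.

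The probes of a gene offer a second reading of the same RNA. Of the 58 member probes, 57 were tested, as 1 probe of SPATA18 was not detected, and 0 were called. At an unadjusted p under 0.05 there were 5 of the 57 probes, among them the POLH probe that was detected in vec only. The background of 12.1% over all genes counts each gene by its leading probe, so that the units differ. Of the 15 members with several tested probes, 8 had probes with changes of opposite sign. BAX had the widest range, with -0.15, 0.60 and 0.46 from its probes, and the mean of its probes gave 0.31. For BBC3 the probes gave -0.07, 0.37 and 0.25. The probes of CDKN1A, PLK3 and SESN1 were close together, with ranges of 0.02, 0.01 and 0.02. MDM2 had a further probe at -0.50 (SE 0.27, adjusted p = 0.515), on which both shpkp3-2 arrays lay below vec.

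**Figure D3:**
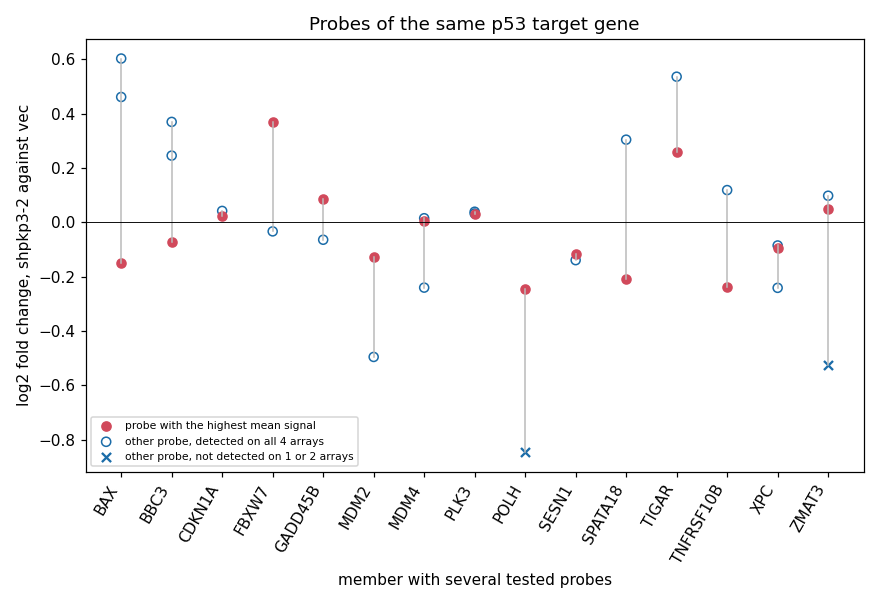
The log2 fold change, shpkp3-2 against vec, of every tested probe of the 15 members with several probes. Filled red points are the probes that stand for the gene, and a gray line joins the probes of a gene. The probes of BAX span 0.75, while those of CDKN1A, PLK3 and SESN1 nearly coincide.

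The spread within a clone was compared with the change between clones. The gap between the vec arrays was larger than the change between clones in 26 members, or 72.2%, and in 58.3% of all genes. The median SD was 0.21 in vec and 0.14 in shpkp3-2. RNA was collected from both clones on 1 occasion for the first arrays and on another for the second arrays, and the change was also read within each collection. Its median over the members was -0.06 in the first and 0.11 in the second. The direction was the same in both collections in 15 members (41.7%), compared with 55.3% of all genes. CDKN1A changed by -0.35 and 0.39, and GADD45A by -0.72 and 0.38. For FDXR the values were 0.69 and 0.34, for SFN 0.31 and 0.65, and for TNFRSF10C 0.33 and 0.67. For the last 3 genes, whose arrays do not overlap between clones, the same sign in both collections follows from that and adds nothing to it. With the collection as a replicate block in limma 0 members were called as well (2.85% of all genes), and the smallest adjusted p of a member that leads its gene was 0.515, for FDXR.

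**Figure D4:**
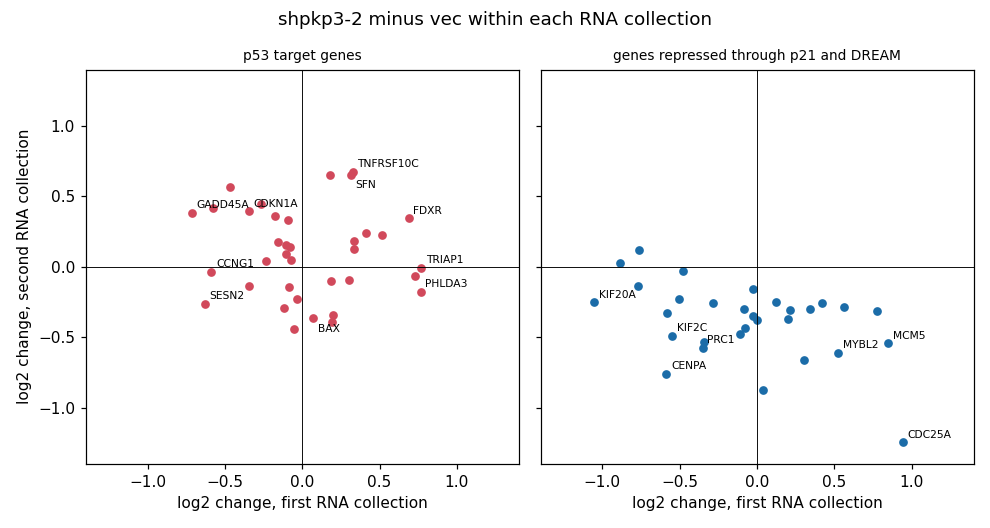
Change in normalized log2 signal, shpkp3-2 minus vec, in the first RNA collection (x axis) and the second (y axis), for the p53 target genes (left) and for genes repressed through p21 and DREAM (right). Points at the lower left and upper right changed the same way in both collections, which holds for 15 of the 36 p53 target genes.

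Other genes of the pathway were read from lists of known function. Of 25 relatives and upstream regulators of p53, 24 were tested and 0 were called, and the median change was -0.02. TP63 was not well above background on both arrays of a clone and was not tested. At an unadjusted p under 0.05, 3 regulators were higher and 0 lower, against 7.62% and 4.53% of all genes, and the count higher was 1 without the first vec array, 2 without the first shpkp3-2 array and 0 without the second, while 2 were lower without the second vec array. They were the kinases HIPK2 (0.64, adjusted p = 0.285), ATM (0.52, adjusted p = 0.399) and ATR (0.47, adjusted p = 0.395), which phosphorylate p53 or act upstream of it. In each of them both shpkp3-2 arrays lay above vec.

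A list of 35 further p53 targets held genes that are less often used as readouts. Of these, 31 were tested, 18 had a change above 0 and 13 below, the median was 0.06 and 0 were called. At an unadjusted p under 0.05, 2 genes were lower and 0 higher, against 4.53% and 7.62% of all genes, and 1 (without the first shpkp3-2 array) to 4 (without the second vec array) were lower with an array left out. EPHA2, a receptor tyrosine kinase that p53 can induce, had normalized log2 signals of 0.35 and 0.34 in vec and of -0.71 and -0.54 in shpkp3-2. The clones did not overlap, with a change of -0.97 (SE 0.18, adjusted p = 0.135). With the replicate block EPHA2 passed the threshold (adjusted p = 0.049), where 2.85% of all genes were called. It also passed when normexp corrected the background (-0.87, adjusted p = 0.041). In the other settings it did not pass, with a limma adjusted p of 0.404 without a filter on detection and 0.274 with a weaker detection flag. TP53I11 gave -0.58 (adjusted p = 0.294), also with no overlap.

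Genes that p53 turns down indirectly were read as a last list. When p21 rises, the DREAM repressor complex assembles on the promoters of cell cycle genes, so that p53 activity lowers them. All 30 genes of this list were tested, 25 had a change below 0 and 5 above, and 0 were called. The share below 0 was 83.3%, compared with 41.7% of all genes tested and 41.7% of the p53 target genes. The count above 0 rested on single arrays, as it was 11 without the second vec array, 9 without the second shpkp3-2 array and 1 without either first array. The median change was -0.22. Both shpkp3-2 arrays lay below vec in 16 of the 30, where the background was 17.2%, and above vec in 0. At an unadjusted p under 0.05 there were 3 lower, where the background was 4.53%, the centromeric histone CENPA (-0.67), the mitotic kinesin KIF2C (-0.52) and the spindle protein PRC1 (-0.46), with adjusted p of 0.343, 0.334 and 0.382. This count rested on single arrays, as it was 8 lower and 2 higher without the second vec array, 1 lower without the first shpkp3-2 array and 0 without the second. The median was -0.05 in the first RNA collection and -0.32 in the second, and it was -0.15 without the second vec array and -0.14 without the second shpkp3-2 array. CDKN1A, whose product p21 stands upstream of this list, changed by 0.02, as given above.

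**Figure D5:**
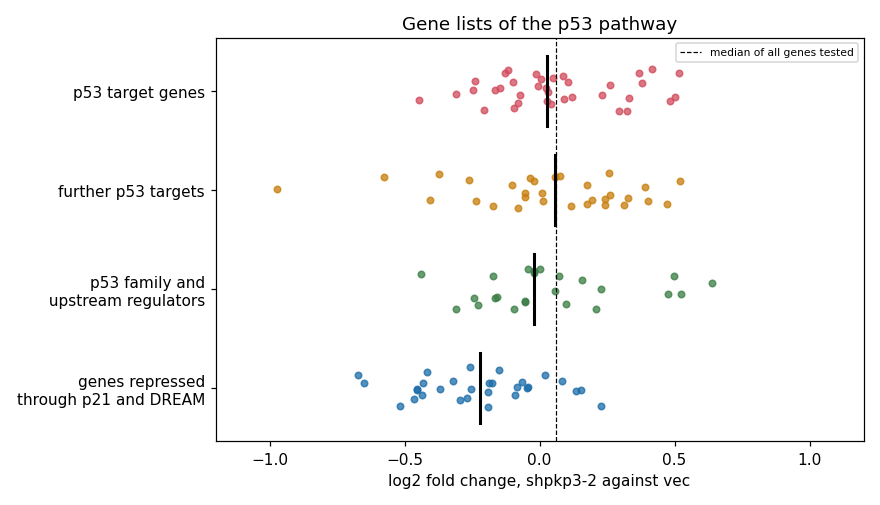
The log2 fold change, shpkp3-2 against vec, of every tested gene in the 4 lists, 1 point per gene, with the median of a list as a black bar and the median of all genes tested as a dashed line. The medians are 0.03, 0.06, -0.02 and -0.22 from top to bottom.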

How the data were processed

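The authors labeled RNA with Cy3, hybridized single color arrays and deposited the output of Agilent Feature Extraction (version 9.1 in the processing notes, 10.7.3.1 in the file headers). The deposited intensity of a spot is the processed signal, linear, background subtracted and not scaled between arrays. The deposited mean and background intensities served for normexp only, and the deposited flags are scores of 0 or 1. Each array's processed signals were put on the log2 scale relative to the 75th percentile of its 51538 non-control spots. Between 26 and 39 non-uniform spots per array were left out. Repeated spots were averaged per probe. The summed intensity per array was 115635392 to 130032824, and the number of arrays limits the precision.

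The clones were compared in R 4.3.3 with limma 3.58.1 (lmFit, then eBayes, with no covariates). The fit took the 30512 probes detected (well above background) on both vec arrays, on both shpkp3-2 arrays or on all, p-values were adjusted over all of them by the method of Benjamini and Hochberg, and the threshold was 0.05. The probe with the highest mean signal stands for its gene. Fold thresholds of 2-fold and 1.5-fold on each shpkp3-2 array were counted without a test. The analysis was tested on simulated data.

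The design text pairs arrays by the occasion of RNA collection. Deviations of same-numbered arrays from their clone means had a correlation of -0.199. The fit without pairing is given, and the fit with a replicate block is an alternative. Other alternatives were normexp (offset 50), quantile normalization, median centring, 3 other detection filters, each array left out, 1 probe per gene, the mean of detected probes, and a trended and robust prior. With an array left out, the lone array of a clone is assumed to vary like those of the other clone.

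Values on every array are given for members with an unadjusted p under 0.05 or a log2 change of at least 0.5, and for CDKN1A, MDM2, BAX, FAS, GDF15, TP53I3 and SESN1. From the other lists, genes with an unadjusted p under 0.05 are named, at most 5 per list. A single-gene result planned beside the lists is not reported here. POLH, SESN2, EPHA2 and other genes with values beyond this rule were chosen after their values were seen. The members and lists were chosen with earlier results of these data known, so no test over a list was made. Python 3.11.15, pandas 2.3.3, numpy 2.4.6 and matplotlib 3.10.9 were used for the summaries and figures. No gene coordinates are given beyond the response elements, since the array design rests on a different build.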

Additional observations from a re-analysis of the deposited data

Results flagged for a closer look

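None of the 36 p53 target genes had changes of at least 0.5 on the log2 scale in opposite directions in the first and the second RNA collection. Of 122 genes tested, which are those of the 4 lists and PKP3, 6 did, and so did 1.87% of all genes tested. Each collection has 1 array per clone, and the difference between collections was not tested. Among the further p53 targets, the transcriptional repressor PRDM1 changed by -0.58 in the first collection and by 1.07 in the second. The stress response gene DDIT4 changed by -1.15 and then 0.67, and the antiproliferative gene BTG1 by -0.69 and then 0.71. Among the genes repressed through p21 and DREAM, the order was the opposite. The transcription factor MYBL2 changed by 0.52 in the first collection and by -0.61 in the second, the phosphatase CDC25A by 0.94 and then -1.25, and the replication helicase subunit MCM5 by 0.85 and then -0.54.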

How the results depend on the processing

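The count of 0 called members held under every alternative run, with a smallest adjusted p of 0.113. The counts of the 2-fold rule also stayed at 0. The median change of the members was -0.038 with quantile normalization and -0.046 with median centring, and leaving out an array gave -0.0076 to 0.14. For the p53 family and upstream regulators, these values were -0.074, -0.094 and -0.039 to 0.061. For the further p53 targets they were -0.024, -0.019 and -0.069 to 0.14, with 0.12 when no filter on detection was used, and 1 gene, EPHA2, was called lower with normexp and 1 with the replicate block. For the genes repressed through p21 and DREAM they were -0.31, -0.30 and -0.29 to -0.14. Signs of single members turned as follows, and the cause was not tested. CDKN1A gave -0.024 with normexp, -0.072 with quantile normalization, -0.051 with median centring and -0.23 to 0.28 with an array left out. MDM2 gave -0.28 to 0.022 and BAX -0.69 to 0.39 with an array left out, and BAX 0.31 with the mean of its probes. GDF15 gave -0.066 with quantile normalization and -0.028 to 0.27 with an array left out. PKP3 stayed at -2.54 but passed the threshold neither without a filter (adjusted p = 0.135) nor with the weaker flag (0.145), and gave -2.80 to -2.28 with an array left out. Over all probes, 119 were called without pairing and 841 with the replicate block, which changed no call in the lists but that of EPHA2. A crossed pairing, added after seeing the data, called 104. With 2 arrays per clone the median SE of a member was 0.20. In the fit without pairing no leading probe of a member passed the threshold, at changes up to 0.52.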
